A study of Mus musculus with 12 samples.

Results

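Genes of glucose uptake, glycolysis and glycogen turnover were followed in RNA of primary murine cardiomyocytes exposed to cytokines of the interleukin-6 family. The group holds 37 genes, taken by symbol from a table of 22915 genes. The list was chosen with earlier results of these data known. It runs from glucose transporters through the glycolytic enzymes to lactate export, the pyruvate dehydrogenase complex and glycogen metabolism. All 37 reached a normalized count of 10 in 3 or more of the 12 libraries and were tested among 13184 genes that did so. Aldoa stood on 2 rows of the table, so that the 37 symbols took 38 rows. Its row ENSMUSG00000114515 held values from 0 to 2 and was not tested.

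The cells came from male C57/Bl6 mice, adults of 12 weeks, and were kept in serum-free medium under normoxia for 24 h with 1 of 4 additions. The PBS group received the solvent alone, and the other groups received mLIF, the mouse form of leukemia inhibitory factor, mOSM, mouse oncostatin M, or hlOSM, a mouse oncostatin M with the human AB loop that signals through both the OSM receptor and the LIF receptor. Each condition had 3 libraries. The labels give 25 ng/mL for all 3 proteins, whereas the published methods state a lower dose. Isolated cells in culture lack the load and perfusion of a working heart, and the sources used here do not say whether libraries came from separate animals or whether libraries with the same number share a cell preparation. All p-values therefore measure the spread between these libraries, which may be technical.

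Glucose enters the cardiomyocyte through GLUT1, which sits in the membrane at rest, and GLUT4, which insulin and contraction bring to the surface. Hexokinase traps it as glucose 6-phosphate, phosphofructokinase commits it to glycolysis, and pyruvate is then either reduced to lactate and exported or oxidized by the mitochondrial pyruvate dehydrogenase complex. The adult heart runs largely on fatty acids, keeps a store of glycogen, and expresses muscle isoforms of several of these enzymes beside the ubiquitous forms.

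Library totals lay between 2745748 and 2911891 on the normalized scale, and the 37 genes made up 0.741% to 0.793% of a library. The 8 cardiomyocyte markers (Myh6, Tnnt2, Tnni3, Actn2, Ryr2, Myl2, Myl3 and Ttn) were abundant throughout, with a summed normalized count of 47402 to 49148 with PBS, 41135 to 42829 with mLIF, 33351 to 37503 with mOSM and 34307 to 36728 with hlOSM. Of the 8, 5 were lower with mLIF and 6 with mOSM and with hlOSM, beside 4.44%, 15.8% and 19.8% of all tested genes. Endothelial markers summed to 1188 to 1262 with PBS, 1471 to 1700 with mOSM and 1477 to 1590 with hlOSM. Of these 8, 6 were higher with mOSM and with hlOSM, beside 15.4% and 18.2% of all tested genes. Smooth muscle and pericyte markers summed to 950 to 1190 with PBS, 660 to 716 with mOSM and 603 to 627 with hlOSM. Of the 6 tested, 5 were lower with mOSM and all 6 with hlOSM, and Cnn1 stood at 2 or less in every library. Fibroblast sums overlapped between PBS, 2296 to 2526, and hlOSM, 2307 to 2540. All 8 fibroblast markers passed the threshold with hlOSM, 3 upward and 5 downward, and 2 passed upward and 3 downward with mOSM. The part of these shifts in the values below was not tested, and fewer cells of a type and less RNA per cell cannot be told apart in bulk libraries.

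With PBS alone, genes of muscle isoforms were among the most abundant of the group. Per kb of exonic sequence, the highest mean normalized counts with PBS were those of Pdha1, the catalytic alpha subunit of pyruvate dehydrogenase, at 430 ± 12.2 (SD, n = 3), of its inhibitor kinase Pdk4 at 415 ± 31.8, and of muscle glycogen phosphorylase Pygm at 402 ± 18.5. The ranges of Pdha1, Pdk4 and Pygm over libraries overlapped, so that their order is not resolved. Muscle isoforms stood above their ubiquitous partners in 3 steps of glycolysis, with Pfkm at 250 per kb against 26.7 for Pfkl and 36.1 for Pfkp, Pgam2 at 268 against 30.3 for Pgam1, and Eno3 at 320 against 39.2 for Eno1. Exonic length joins the exons of all annotated transcripts, 13401 bases for Pfkp, 6675 for Pfkl and 3340 for Pfkm. The size of these gaps and the order of genes per kb depend on that length. On counts, without length, the log2 ratio with PBS was -0.79 for Pfkp to Pfkm and -2.23 for Pfkl to Pfkm. It was -1.89 for Pgam1 to Pgam2 and -1.40 for Eno1 to Eno3. Among the hexokinases, Hk2, the insulin-responsive form of muscle, stood at 269 per kb and Hk1 at 80.6. The lowest member was Slc16a3, encoding the lactate exporter MCT4, at 1.25 ± 0.217 per kb, followed by Pfkfb3 at 15.5 and Pdk3 at 19.1. Levels per kb of Pgk1, Pgam1, Eno1 and Gapdh rest on part of their transcript, because 52.8%, 34.9%, 23.0% and 22.6% of their windows of 75 bases also occur in other genes, mostly pseudogenes, and reads that fit several places were discarded by the authors.

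**Figure D1:**
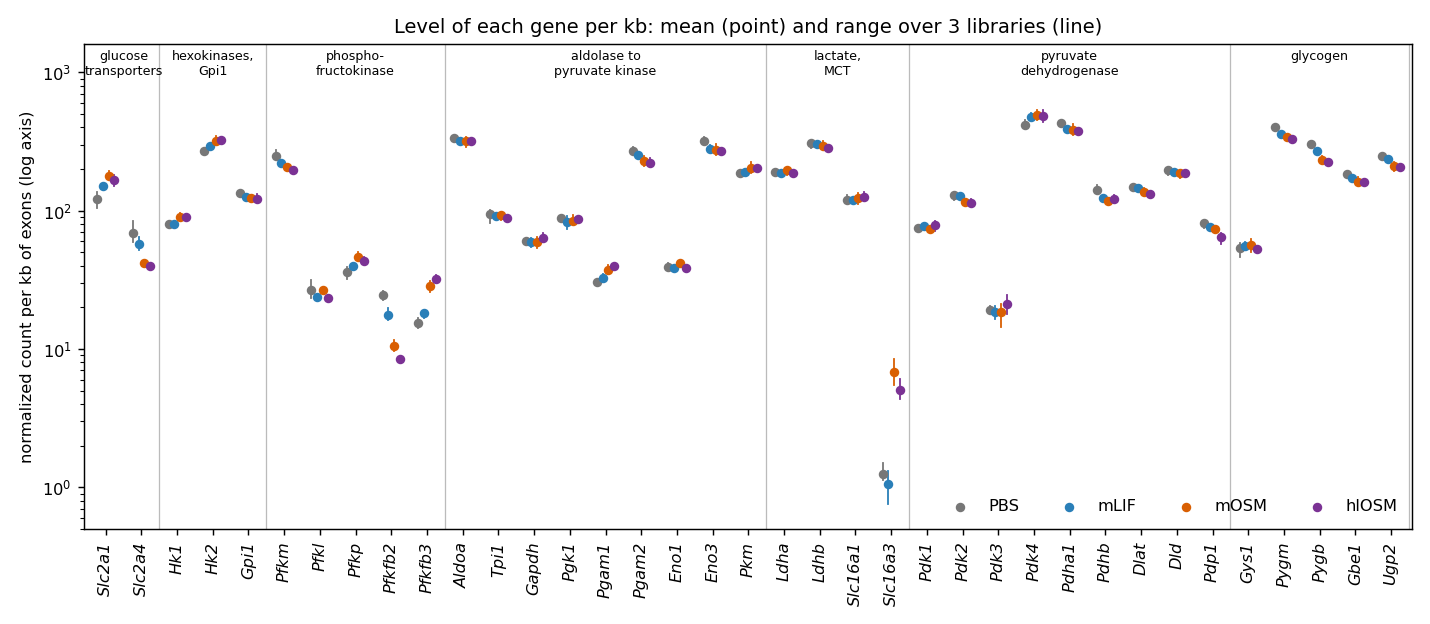
Mean normalized count per kb of exons (log axis) of the 37 genes in each condition, in the order of the pathway, with lines from the lowest to the highest of 3 libraries. Muscle isoforms such as Pfkm, Pgam2 and Eno3 stand well above Pfkl, Pgam1 and Eno1 in all 4 conditions, and Slc16a3 is the lowest gene throughout.

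More of these genes passed the threshold with mOSM and hlOSM than with mLIF. Against PBS, mOSM raised 8 and lowered 12 of the 37 genes (limma, Benjamini-Hochberg adjusted p under 0.05 over 13184 genes), 21.6% and 32.4% of the group, where 15.4% of all tested genes were raised and 15.8% lowered. For hlOSM 8 were raised and 14 lowered, beside 18.2% and 19.8% of all genes. With mLIF only Slc2a1 was raised and Pfkfb2 and Pygm were lowered, that is 2.7% and 5.41% of the 37, beside 5.47% and 4.44% of all genes. Over the 37 genes the median log2 fold change was -0.04 for mLIF and -0.07 for either OSM protein, and that of all tested genes lay within 0.01 of 0. Counted without regard to sign, the median size of change of the 37 genes was 0.18 with mOSM and 0.19 with hlOSM, against 0.19 and 0.22 for all genes.

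One of the genes counted as raised with mOSM and hlOSM, Slc16a3, reached the minimum of 10 only in those libraries, so that its place in the counts is fixed by the selection. All p-values carry a further limit. Of the spread inside conditions only 0.0168% fell between replicate numbers, against 25% if numbers carry no effect, so that the deposited values hold almost no difference between numbers. Whether such a difference was removed before deposit is not given in the sources used here. If it was, 6 residual degrees of freedom remain where the fit counts 8, and its p-values are too small. A fit with the number as a block, on 6 degrees of freedom, raised 6 and lowered 10 of the 37 for mOSM, beside 12.5% and 12.8% of all genes. For hlOSM it raised 8 and lowered 13, beside 14.7% and 16.5%, and for mLIF it raised 1 and lowered 1, beside 3.39% and 2.56%. The calls it lost were Pygm for mLIF, Hk1, Pgam1, Pgam2 and Pdk2 for mOSM and Pdk2 for hlOSM.

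The calls fell into few patterns. Slc2a1 was raised and Pfkfb2 and Pygm were lowered by all 3 cytokines. Both mOSM and hlOSM raised Hk1, Hk2, Pfkp, Pfkfb3, Pgam1, Slc16a3 and Pdk4, and both lowered Slc2a4, Pfkm, Pgam2, Eno3, Pdha1, Pdhb, Pdk2, Pygb, Gbe1 and Ugp2. Pdp1 and Dlat passed the threshold, downward, with hlOSM alone, and 15 genes passed it with no cytokine. These comparisons share the PBS libraries, so their values are given side by side and the coincidence of calls is no independent evidence. The share of all tested genes in each pattern was not computed, so nothing is read from how many genes a pattern holds. Several calls were lost without PBS replicate 3. There 5 were raised and 9 lowered with hlOSM, 5 raised and 8 lowered with mOSM, and 0 raised and 1 lowered with mLIF. Calls over all genes fell as well, from 2393 raised and 2609 lowered to 2108 and 1924 with hlOSM. They went from 2031 and 2089 to 1731 and 1467 with mOSM, and from 721 and 586 to 427 and 199 with mLIF. Without mOSM replicate 3, mOSM raised 5, and without mOSM replicate 1 it lowered 8. Over all genes, 1861 were raised and 1718 lowered in these fits, against 2031 and 2089 with all libraries. With mLIF, 0 were raised without mLIF replicate 3 and 2 without PBS replicate 1 or mOSM replicate 3, whereas 1 was lowered without mLIF replicate 2, mLIF replicate 3 or hlOSM replicate 2, 4 without hlOSM replicate 3 and 6 without mOSM replicate 3. Over all genes, mLIF raised 273 without mLIF replicate 3, 670 without PBS replicate 1 and 829 without mOSM replicate 3. It lowered 346 without mLIF replicate 2, 229 without mLIF replicate 3 and 558 without hlOSM replicate 2. Without hlOSM replicate 3 it lowered 710, and without mOSM replicate 3 it lowered 796. Calls held under each of the 9 alternative settings that could be run and without each of the 6 libraries compared for Slc2a1, Hk2, Pfkp and Pfkfb3 upward and for Slc2a4, Pfkm, Pfkfb2, Pdhb, Pygm, Pygb and Ugp2 downward with mOSM. With hlOSM they held for Slc2a1, Hk2, Pfkfb3 and Pgam1 upward and for Slc2a4, Pfkm, Pfkfb2, Eno3, Pdp1, Pygm, Pygb, Gbe1 and Ugp2 downward.

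**Figure D2:**
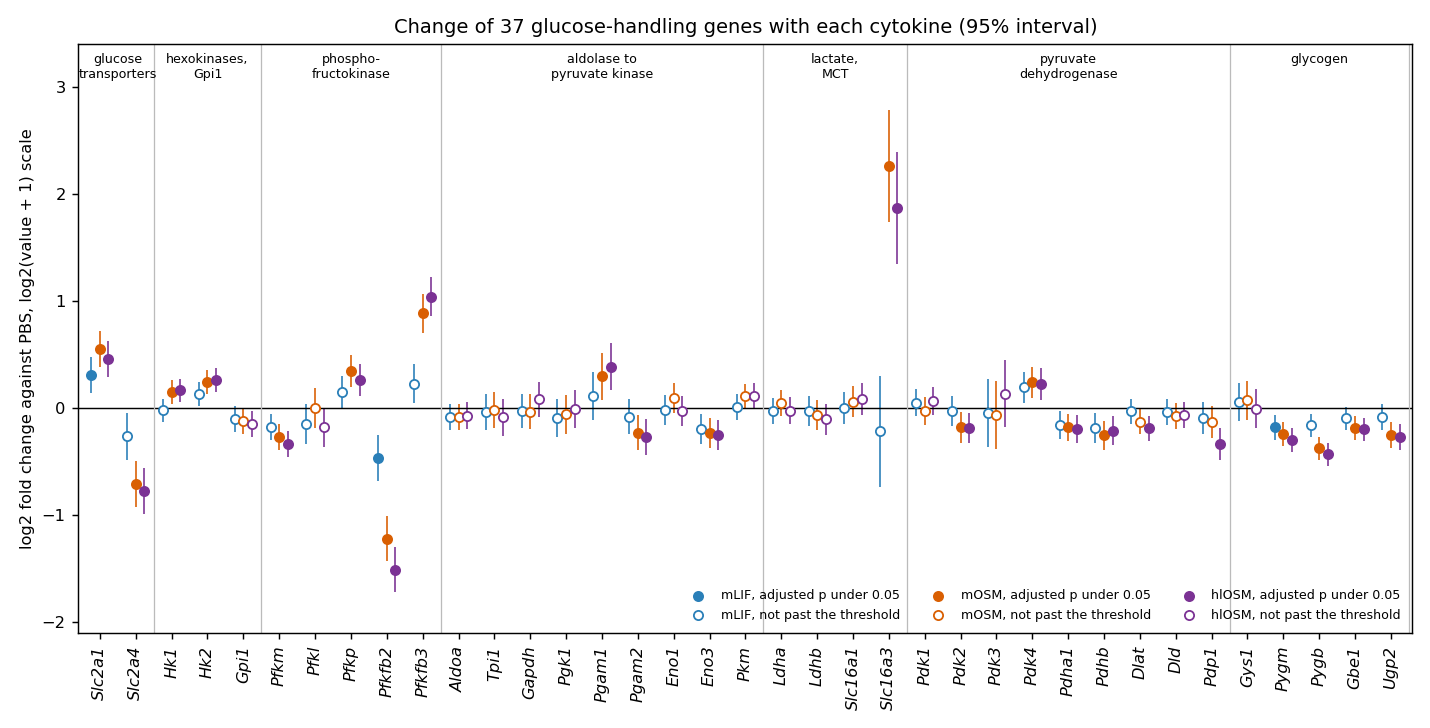
Log2 fold change of each of the 37 genes against PBS with its 95% interval, on the log2(normalized count + 1) scale, for mLIF (blue), mOSM (orange) and hlOSM (purple), with filled points for adjusted p under 0.05. Slc16a3 and Pfkfb3 stand highest and Pfkfb2 lowest with mOSM and hlOSM, while most genes from aldolase to pyruvate kinase lie close to 0. Slc16a3 had to differ with mOSM and hlOSM through the filter, and its points there are a description.

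Start regions were read for short motifs because several of these genes are known targets of HIF-1, MYC and STAT factors. RefSeq windows (GRCm38.p6, 250 bases before to 50 after a start) were given for 35 of the 37 genes, and Slc2a4 and Pdp1 were not analysed here. The 35 genes had 51 windows, and in 36 of these the bases after the start lay in an annotated transcript of the gene. The letters ACGTG, the core of the hypoxia response element, stood on either strand in at least 1 window of 20 of the 35 genes (57.1%), against 29.7% of 9763 tested genes with a window and 19.6% of all 32851 windows. Of genes raised by hlOSM 6 of 8 held it, of those lowered 7 of 12, and of the rest 7 of 15. CACGTG, the E-box that holds the same core on both strands, was found in 6 of 35 (17.1%, against 12.0% of tested genes), and TTCNNNGAA, a STAT site with any bases for N, in 1 of 35 (2.86%, against 8.27%), which was Pfkm. The stretches given here are the exon-free parts before a start for 3 genes that rose, Pfkfb3, Slc16a3 and Hk2, for Pfkfb2, which fell most, and for the Pfkm start with the STAT match. They are written 5′ to 3′ on the strand of the gene, with matches of the 3 motifs, read on either strand, in capitals.
Pfkfb3, chr2:11502102-11502340, − strand: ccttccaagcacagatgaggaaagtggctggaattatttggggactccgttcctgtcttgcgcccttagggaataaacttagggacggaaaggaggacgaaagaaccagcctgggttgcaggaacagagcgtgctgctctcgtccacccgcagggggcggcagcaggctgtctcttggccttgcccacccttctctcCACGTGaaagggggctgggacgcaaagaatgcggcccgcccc
Slc16a3, chr11:120948817-120949052, + strand: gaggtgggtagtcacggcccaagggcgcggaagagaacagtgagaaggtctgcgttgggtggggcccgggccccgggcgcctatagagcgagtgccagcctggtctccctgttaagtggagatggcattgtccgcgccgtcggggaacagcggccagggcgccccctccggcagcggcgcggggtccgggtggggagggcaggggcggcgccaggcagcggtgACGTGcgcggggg
Hk2, chr6:82774455-82774704, − strand: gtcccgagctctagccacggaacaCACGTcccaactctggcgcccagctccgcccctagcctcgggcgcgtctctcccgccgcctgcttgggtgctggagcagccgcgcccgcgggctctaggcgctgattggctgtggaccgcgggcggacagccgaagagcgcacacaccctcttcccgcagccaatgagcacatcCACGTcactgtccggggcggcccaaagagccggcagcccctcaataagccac
Pfkfb2, chr1:130715822-130716071, − strand: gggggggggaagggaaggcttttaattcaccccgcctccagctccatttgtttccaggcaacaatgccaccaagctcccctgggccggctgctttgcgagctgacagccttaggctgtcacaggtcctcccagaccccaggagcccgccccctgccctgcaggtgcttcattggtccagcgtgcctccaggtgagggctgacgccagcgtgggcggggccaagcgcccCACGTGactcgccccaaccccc
Pfkm, chr15:98108221-98108465, + strand: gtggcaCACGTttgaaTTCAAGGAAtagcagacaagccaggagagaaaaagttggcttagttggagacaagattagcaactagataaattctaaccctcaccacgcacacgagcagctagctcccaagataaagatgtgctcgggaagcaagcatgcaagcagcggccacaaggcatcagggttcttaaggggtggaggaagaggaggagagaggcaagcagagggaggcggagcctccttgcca
In the printed parts Pfkfb3 and Pfkfb2 each carry the E-box, Slc16a3 and Hk2 carry the ACGTG core without it, and Pfkm carries TTCAAGGAA beside CACGT, which is ACGTG read on the other strand. Pfkfb3, which rose, and Pfkfb2, which fell, hold the same letters near a start. Both genes have several starts, and the printed start is the one with the E-box. Their other starts lack it in the 250 bases before. A match describes letters only and shows no binding.

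The pair of glucose transporters moved in opposite directions. Slc2a1 (ENSMUSG00000028645, chr4:119108711-119137983, + strand, mm10), which encodes GLUT1, had normalized counts of 480, 425 and 369 with PBS, 516, 514 and 541 under mLIF, 588, 596 and 680 under mOSM, and 528, 582 and 636 under hlOSM. Every cytokine library was above every PBS library. Slc2a1 rose by a log2 of 0.31 with mLIF (SE 0.082, adjusted p = 0.0186). The rise was 0.55 for mOSM (adjusted p = 1.68e-05) and 0.46 for hlOSM (adjusted p = 1.19e-04). The mLIF call was lost without PBS replicate 3, the lowest of its group, where the log2 fold change was 0.21 and the adjusted p 0.129, and without mLIF replicate 3 at an adjusted p of 0.0899.

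Slc2a4 (ENSMUSG00000018566, chr11:69942539-69948188, − strand), which encodes the insulin-responsive transporter GLUT4, had 206, 223 and 294 with PBS, 224, 192 and 181 under mLIF, 152, 147 and 138 under mOSM, and 132, 144 and 140 under hlOSM. The mLIF libraries overlapped those of PBS, whereas all mOSM and hlOSM libraries were below every PBS and every mLIF library. It fell by 0.71 on the log2 scale with mOSM (SE 0.10, adjusted p = 1.72e-05) and by 0.78 with hlOSM (adjusted p = 3.72e-06), and the difference with mLIF, -0.26, had an adjusted p of 0.112, which became 0.0347 without PBS replicate 1. Cardiomyocyte marker sums were also lower with mOSM and hlOSM, and their part in the fall of Slc2a4 was not tested. Within a library the log2 ratio of Slc2a1 to Slc2a4 was 0.82 ± 0.45 (SD, n = 3) with PBS and 1.40 ± 0.19 with mLIF. It reached 2.08 ± 0.18 in the mOSM libraries and 2.06 ± 0.10 in those of hlOSM. Without PBS replicate 3 the difference of this ratio between mLIF and PBS went from 0.57 to 0.325.

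Lists of related genes, here and further on, are described by counts that stand beside 15.4% raised and 15.8% lowered of all tested genes for mOSM and 18.2% and 19.8% for hlOSM, and nothing is read from a count near those shares. Of 8 other tested genes of glucose transport and trafficking, 2 were raised and 2 lowered by mOSM and the same counts by hlOSM. Arrdc4, an arrestin that promotes removal of glucose transporters from the membrane, had 227 to 244 with PBS, 319 to 359 with mOSM and 334 to 344 with hlOSM, a rise of 0.50 and 0.52 (adjusted p = 2.33e-06 and 1.11e-06). The other raised gene was Slc2a3, encoding the high-affinity transporter GLUT3, which is too low for the naming rule and was chosen after its values were seen. Its counts were 21, 15 and 19 with PBS, 36, 32 and 38 under mLIF, 51, 70 and 46 under mOSM, and 54, 63 and 72 under hlOSM, with no overlap between PBS and any cytokine. The log2 fold changes of Slc2a3 were 0.92, 1.54 and 1.73 (adjusted p = 0.00176, 3.80e-07 and 5.41e-08). Tbc1d4, the Akt substrate that holds GLUT4 vesicles inside the cell, was lower with mOSM by a log2 of -0.20 and with hlOSM by -0.30 and was also named after its values were seen.

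Both hexokinases rose modestly with mOSM and hlOSM. Hk2 (ENSMUSG00000000628, chr6:82725025-82774454, − strand) had 1646, 1600 and 1564 with PBS, 1818, 1718 and 1737 under mLIF, 1820, 1820 and 2053 under mOSM, and 1820, 1957 and 1996 under hlOSM. All 9 cytokine libraries were above the PBS libraries. The rise was 0.24 with mOSM (SE 0.054, adjusted p = 0.0016) and 0.26 with hlOSM (adjusted p = 5.81e-04), and the difference with mLIF was 0.13 (adjusted p = 0.125). In the fit of PBS and mLIF libraries alone Hk2 passed with mLIF (adjusted p = 0.0343), as it did after quantile rescaling, where the log2 difference was 0.19 (adjusted p = 0.00175).

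Hk1 (ENSMUSG00000037012, chr10:62268855-62379908, − strand), the ubiquitous form bound to mitochondria, had 705, 687 and 672 with PBS, 678, 663 and 692 under mLIF, 722, 758 and 818 under mOSM, and 769, 760 and 785 under hlOSM. The mLIF libraries overlapped those of PBS, and the mOSM and hlOSM libraries were above both. The log2 fold change was 0.15 with mOSM (adjusted p = 0.0326) and 0.16 with hlOSM (adjusted p = 0.0185), the latter lost without PBS replicate 3 (0.0675). The mOSM call of Hk1 was lost without PBS replicate 2 or 3 or mOSM replicate 2 or 3 (adjusted p from 0.0586 to 0.115) and held in 8 of 15 alternatives. Gpi1, which isomerizes glucose 6-phosphate to fructose 6-phosphate, passed with no cytokine, at -0.15 and an adjusted p of 0.0517 with hlOSM.

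At phosphofructokinase, genes of the same family moved apart. The bifunctional enzymes of the PFKFB family make and degrade fructose 2,6-bisphosphate, the strongest activator of phosphofructokinase-1. Pfkfb2 (ENSMUSG00000026409, chr1:130689182-130729253, − strand), the cardiac form that insulin activates by phosphorylation, had 164, 179 and 189 with PBS, 144, 123 and 118 under mLIF, 73, 70 and 84 under mOSM, and 59, 65 and 61 under hlOSM. The 4 conditions did not overlap. Pfkfb2 fell by 0.47 with mLIF (SE 0.10, adjusted p = 0.00549), by 1.22 with mOSM (adjusted p = 5.45e-09) and by 1.51 with hlOSM (adjusted p = 1.40e-10). The gene Gm29427 overlaps 17.4% of its exonic bases on the same strand, and reads that touch exons of both are not counted for either gene.

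Pfkfb3 (ENSMUSG00000026773, chr2:11471433-11554077, − strand), the inducible form with the highest kinase activity of the family, had 118, 107 and 126 with PBS, 127, 142 and 142 under mLIF, 233, 224 and 194 under mOSM, and 231, 234 and 260 under hlOSM. The mOSM and hlOSM libraries overlapped each other and stood above all the others. It rose by a log2 of 0.88 with mOSM (SE 0.087, adjusted p = 6.48e-08) and 1.04 with hlOSM (adjusted p = 3.99e-09), and with mLIF the difference was 0.23 (adjusted p = 0.101). The log2 ratio of Pfkfb3 to Pfkfb2 was -0.60 ± 0.13 (SD, n = 3) with PBS and 0.10 ± 0.24 with mLIF. It was 1.51 ± 0.27 in the mOSM libraries and 1.95 ± 0.12 in those of hlOSM.

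Among the subunits of phosphofructokinase-1 itself, the muscle form Pfkm fell and the platelet form Pfkp rose. Pfkm had 797 to 908 with PBS, 707 to 758 with mLIF, 670 to 730 with mOSM and 647 to 675 with hlOSM. Its log2 fold changes were -0.18 with mLIF (adjusted p = 0.0552), -0.27 with mOSM (adjusted p = 0.00113) and -0.33 with hlOSM (adjusted p = 9.64e-05). Pfkp had 430 to 524 with PBS, 576 to 676 with mOSM and 547 to 622 with hlOSM, without overlap, and rose by 0.35 and 0.27 (adjusted p = 8.32e-04 and 0.00611), the latter lost without PBS replicate 3 (0.0564). The liver form Pfkl did not pass, at 0.00 with mOSM and -0.18 with hlOSM. Pfkfb4, a further testis and hypoxia-inducible member of the family that was named after its values were seen, was raised by mLIF, 0.57, and mOSM, 0.81 (adjusted p = 0.0428 and 0.00127), on counts of 18 to 45.

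**Figure D3:**
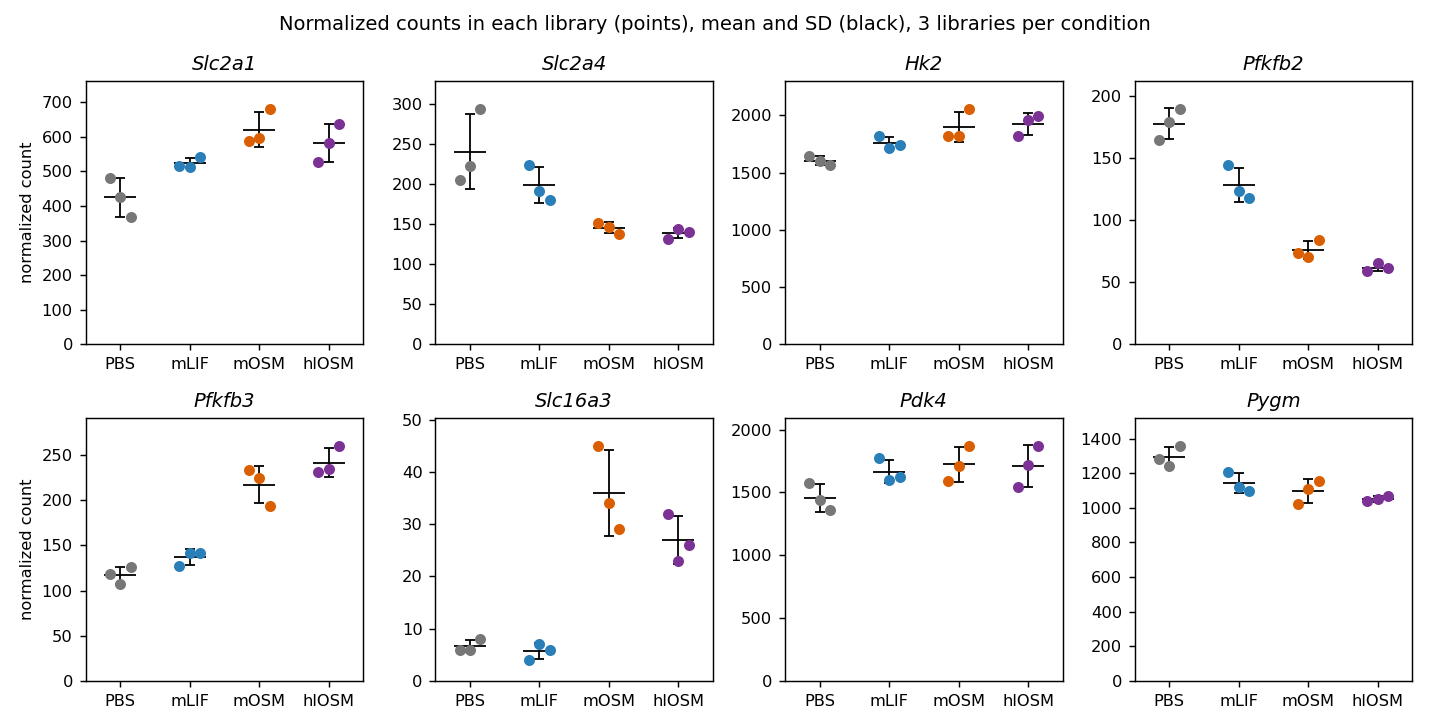
Normalized counts in each library (points, 3 per condition) with mean and SD (black) for 8 of the 37 genes, each on an axis from 0. Pfkfb2 steps down from PBS through mLIF to mOSM and hlOSM. Pfkfb3 and Slc16a3 stand well above PBS and mLIF with mOSM and hlOSM, where Slc16a3 had to differ through the filter. Pdk4, Hk2 and Pygm move by small amounts.

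Of the 9 genes from aldolase to pyruvate kinase, 6 passed the threshold with no cytokine. Both mOSM and hlOSM raised 1 and lowered 2 of the 9. Of all tested genes, 15.4% were raised and 15.8% lowered with mOSM, and 18.2% and 19.8% with hlOSM. The counts are near those shares, and nothing is read from them. Over these 6, Aldoa, Tpi1, Gapdh, Pgk1, Eno1 and Pkm, the log2 fold changes against PBS ran from -0.09 to 0.12 across the 3 cytokines. The interval of Gapdh, the dehydrogenase often used as a reference gene, was -0.08 to 0.24 with hlOSM. Genes of mutase and enolase forms passed. Muscle phosphoglycerate mutase Pgam2 fell by 0.23 with mOSM (adjusted p = 0.0325) and by 0.27 with hlOSM (adjusted p = 0.0109, 0.0652 without PBS replicate 3). The mOSM call of Pgam2 was lost without PBS replicate 2 or 3 or mOSM replicate 1 or 2 (adjusted p from 0.052 to 0.172). Muscle enolase Eno3 fell by 0.23 and 0.25 (adjusted p = 0.0114 and 0.00479), the former lost without PBS replicate 3 or mOSM replicate 1 (0.0651 and 0.0805). Pgam1, the brain form of the mutase, rose from 57 to 63 with PBS to 69 to 80 with mOSM and 78 to 80 with hlOSM, by 0.30 and 0.39 (adjusted p = 0.0378 and 0.00648). Its mOSM call was lost without PBS replicate 1 or 3 or mOSM replicate 2 or 3 (adjusted p from 0.074 to 0.122) and held in 7 of 15 alternatives. Other glycolysis genes, 11 tested, had 2 raised with mOSM and 1 raised and 1 lowered with hlOSM.

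Lactate handling split between a large change of its least expressed member and none detected in the others. Slc16a3 (ENSMUSG00000025161, chr11:120948480-120960868, + strand) encodes MCT4, the low-affinity carrier that glycolytic cells use to export lactate. Its counts were 6, 6 and 8 with PBS, 4, 7 and 6 under mLIF, 45, 34 and 29 under mOSM, and 32, 23 and 26 under hlOSM. PBS and mLIF libraries were alike in range, and each mOSM and hlOSM library held at least 23. Slc16a3 met the filter of 10 only through its mOSM and hlOSM libraries and so had to differ, and its fold changes are a description. The log2 fold change was 2.26 with mOSM (SE 0.25) and 1.87 with hlOSM, values which the pseudocount of 1 draws toward 0 at such low counts. The endothelial marker sum was higher in the mOSM and hlOSM libraries as well. Macrophage and leukocyte markers summed to 309 to 335 with PBS, 353 to 393 with mOSM and 328 to 399 with hlOSM. Their 6 tested markers were split, with 1 raised and 1 lowered by mOSM and the same by hlOSM. The median log2 fold change of these markers was 0.02 with mOSM and -0.16 with hlOSM. The part of the endothelial and leukocyte markers in the values of Slc16a3 was not tested.

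Slc16a1, encoding MCT1, the main lactate carrier of the cardiomyocyte, remained at 493 to 606 over all libraries, and its interval with hlOSM was -0.06 to 0.23. The lactate dehydrogenase subunits Ldha and Ldhb had intervals of -0.15 to 0.10 and -0.25 to 0.04 with hlOSM and passed with no cytokine. With mOSM, Slc16a3 had 6.77 per kb of exons and Slc16a1 had 124, so that it stood far below also there. Of 14 other tested genes of lactate and pyruvate handling, 0 were raised and 4 lowered by mOSM and the same by hlOSM, among them the malic enzymes Me1 and Me3 with both. Me1 changed by -0.20 and -0.21 and Me3 by -0.40 and -0.48, and both were named after their values were seen.

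Of the 9 genes of the pyruvate dehydrogenase complex and its regulators, mOSM raised 1 and lowered 3, and hlOSM raised 1 and lowered 5. Of all tested genes, 15.4% were raised and 15.8% lowered with mOSM, and 18.2% and 19.8% with hlOSM. Pdha1 changed by -0.18 with mOSM (adjusted p = 0.0282) and -0.19 with hlOSM (adjusted p = 0.0163), and Pdhb, the beta subunit of the same enzyme, by -0.25 and -0.21 (adjusted p = 0.00501 and 0.0145). The call of Pdha1 was lost for mOSM without PBS replicate 1 or 3 or mOSM replicate 1 or 2 (adjusted p from 0.0751 to 0.167), and for hlOSM without PBS replicate 3 or hlOSM replicate 1 (0.0563 and 0.0612). That of Pdhb for hlOSM was lost without PBS replicate 3 or hlOSM replicate 2 (0.108 and 0.075). Dlat, the acetyltransferase core, had -0.13 with mOSM (adjusted p = 0.0988) and -0.19 with hlOSM (adjusted p = 0.0118, lost without PBS replicate 3 or hlOSM replicate 2 at 0.0665 and 0.0522), while Dld, the lipoamide dehydrogenase that other complexes share, had -0.07 with either. Pdp1, the calcium-activated phosphatase that switches the complex on, had 338 to 384 with PBS, 326 to 338 with mOSM and 258 to 313 with hlOSM, and was lower with hlOSM by -0.33 (adjusted p = 8.37e-04). The Pdha1 exons overlap those of Map3k15 on the other strand over 16.2% of their length.

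Pdk4 (ENSMUSG00000019577, chr6:5483351-5496309, − strand), the kinase that fasting and fatty acids induce to switch the complex off, had 1578, 1438 and 1357 with PBS, 1775, 1602 and 1621 under mLIF, 1588, 1712 and 1868 under mOSM, and 1540, 1715 and 1870 under hlOSM. The highest PBS library lay above the lowest hlOSM library and just below the lowest of mLIF and mOSM. The rise was 0.24 with mOSM (SE 0.071, adjusted p = 0.0122) and 0.23 with hlOSM (adjusted p = 0.0147). Both calls were lost without PBS replicate 3 (adjusted p = 0.0761 and 0.0853), that of mOSM also without mOSM replicate 3 (0.061) and that of hlOSM without hlOSM replicate 3 (0.0996). Pdk2, the constitutive kinase of heart, changed the other way, by -0.18 with either (adjusted p = 0.0496 and 0.0379), but these calls held in 5 and 8 of 15 alternatives. That of mOSM was lost without PBS replicate 1 or 3 or mOSM replicate 1 or 3 (adjusted p from 0.114 to 0.179) and that of hlOSM without PBS replicate 1 or 3 or hlOSM replicate 1 or 2 (0.0587 to 0.184). For mLIF the difference of Pdk4 did not pass, but it did after quantile rescaling (adjusted p = 0.00834), in the fit of PBS and mLIF libraries alone (0.027) and without PBS replicate 1 (0.0399). Pdk1 and Pdk3 passed with no cytokine.

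Of the 5 glycogen enzymes, 4 were lowered by mOSM and by hlOSM, beside 15.8% and 19.8% of all tested genes, and the synthase was not. Pygm (ENSMUSG00000032648, chr19:6384399-6398459, + strand), muscle glycogen phosphorylase, had 1284, 1240 and 1358 with PBS, 1207, 1123 and 1096 under mLIF, 1021, 1108 and 1157 under mOSM, and 1037, 1049 and 1070 under hlOSM. All PBS libraries were above every cytokine library. The log2 fold change was -0.18 with mLIF (SE 0.056, adjusted p = 0.0417), -0.24 with mOSM (adjusted p = 0.00195) and -0.30 with hlOSM (adjusted p = 2.02e-04). The mLIF call was lost without PBS replicate 1 or 3 and without mLIF replicate 2 or 3 (adjusted p from 0.0795 to 0.192).

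Pygb, the brain phosphorylase, which stood at 302 per kb with PBS, fell from 1408 to 1524 with PBS to 1062 to 1185 with mOSM and 1048 to 1107 with hlOSM, by 0.37 and 0.43 (adjusted p = 7.76e-06 and 8.05e-07). The branching enzyme Gbe1 changed by -0.19 and -0.20, its mOSM call being lost without PBS replicate 1 or mOSM replicate 2 (adjusted p = 0.0545 and 0.057), and Ugp2, which makes the UDP-glucose that the synthase uses, by -0.25 and -0.27. Gys1 (ENSMUSG00000003865, chr7:45434844-45456619, + strand), the muscle glycogen synthase, had 271, 221 and 279 with PBS, 251, 264 and 285 under mLIF, 269, 299 and 242 under mOSM, and 246, 255 and 263 under hlOSM. All 4 conditions of Gys1 overlapped, with log2 fold changes of 0.06, 0.07 and -0.01 and an interval of -0.19 to 0.17 for hlOSM.

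Of 23 other tested glycogen genes, 3 were raised and 6 lowered by mOSM and 5 raised and 5 lowered by hlOSM. Phka2, a regulatory subunit of the phosphorylase kinase that switches phosphorylase on, had 161 to 194 with PBS, 98 to 131 with mOSM and 95 to 113 with hlOSM, a change of -0.61 and -0.80 (adjusted p = 1.19e-04 and 3.01e-06). Epm2a, the glycogen phosphatase laforin, had 188 to 203 with PBS, 120 to 141 with mOSM and 98 to 137 with hlOSM, a change of -0.58 and -0.69 (adjusted p = 2.61e-04 and 2.39e-05). In the other direction, Ppp1r3d, a subunit that targets protein phosphatase 1 to glycogen, rose with all 3 cytokines, by 0.48, 0.76 and 0.95 (adjusted p = 0.00869, 1.69e-05 and 6.23e-07), the mLIF call being lost without mLIF replicate 3 (0.0636). Stbd1, which tethers glycogen to membranes, rose by 0.47 with mOSM and 0.62 with hlOSM (adjusted p = 0.00298 and 2.01e-04).

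Of 17 tested transcription factors that act on glucose genes, 3 were raised and 5 lowered by mOSM and 3 raised and 6 lowered by hlOSM, beside 15.4% and 15.8% of all genes for mOSM and 18.2% and 19.8% for hlOSM. Hif1a, the oxygen-regulated activator of many glycolytic genes, had 1203 to 1219 with PBS, 1259 to 1411 with mLIF, 1570 to 1780 with mOSM and 1655 to 1816 with hlOSM, a rise of 0.45 with mOSM and 0.50 with hlOSM (adjusted p = 1.75e-06 and 2.99e-07). These are transcript levels under normoxia, and HIF-1 alpha is controlled mainly as a protein. The difference of Hif1a with mLIF passed only after quantile rescaling (adjusted p = 0.0056). Mlxipl, encoding the glucose-sensing factor ChREBP, had 77 to 93 with PBS, 56 to 59 with mOSM and 44 to 49 with hlOSM, a change of -0.58 and -0.89 (adjusted p = 3.12e-04 and 1.24e-06). Its dimer partner Mlx was higher, by 0.42 with mOSM (adjusted p = 0.0209) and 0.60 with hlOSM (adjusted p = 0.00133), and the mOSM call was lost without PBS replicate 2 or mOSM replicate 2 (adjusted p = 0.149 and 0.12). Mef2a, an activator of Slc2a4 in muscle that was named after its values were seen, was lower with all 3, by -0.25, -0.45 and -0.48 (adjusted p = 0.00391, 6.83e-07 and 2.37e-07).

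The cytokines were also compared with each other. Against mLIF, mOSM raised 3 genes, Slc16a3 by a log2 of 2.48, Pfkfb3 by 0.66 and Hk1 by 0.17, and lowered 3, Pfkfb2 by -0.75, Slc2a4 by -0.44 and Pygb by -0.21, beside 6.05% and 5.76% of all tested genes. Here too Slc16a3 had to differ through the filter, and its values are a description. The same 6 genes passed for hlOSM against mLIF, with Slc16a3 at 2.08, Pfkfb3 at 0.81, Hk1 at 0.19, Pfkfb2 at -1.04, Slc2a4 at -0.51 and Pygb at -0.27, together with Pdp1 at -0.24 and Ugp2 at -0.19, so that 3 were raised and 5 lowered beside 7.42% and 9.22% of all genes. The 5 lowered went to 3 without mLIF replicate 1, mLIF replicate 2 or hlOSM replicate 1, and the 3 raised by mOSM went to 5 without PBS replicate 3 and to 2 without mLIF replicate 1, 2 or 3 or mOSM replicate 2 or 3. The 3 lowered by mOSM went to 2 without mLIF replicate 1, and the 3 raised by hlOSM to 2 without mLIF replicate 1 or 2. Counts over all genes moved too. Without mLIF replicate 1, those lowered went from 1216 to 896 for hlOSM and from 760 to 537 for mOSM. Those raised by hlOSM went from 978 to 674 there, and those raised by mOSM from 797 to 886 without PBS replicate 3. The fit with the number as a block raised 2 and lowered 3 for mOSM against mLIF, beside 4.7% and 4.11% of all genes, and raised 3 and lowered 3 for hlOSM, beside 5.49% and 6.66%.

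Between hlOSM and mOSM no member passed (limma, 0 of 37), where 0% of all genes were higher and 0.106% lower. At an unadjusted p under 0.05 there were 2 of the 37, against 7.49% of all genes. Pfkfb2 had -0.29 (95% interval -0.50 to -0.08, adjusted p = 0.472) and Pdp1 -0.20 (-0.35 to -0.06, adjusted p = 0.472), and in both the hlOSM libraries were below the mOSM libraries. The intervals of the difference were -0.26 to 0.07 for Slc2a1, -0.29 to 0.15 for Slc2a4, -0.02 to 0.34 for Pfkfb3 and -0.91 to 0.13 for Slc16a3, which leaves differences of either sign possible.

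Whether the step from mOSM to hlOSM equals that from PBS to mLIF was asked with an interaction. No member passed (0 of 37, limma, beside 0.167% of all genes), and 3 had an unadjusted p under 0.05, beside 11.5% of all genes. Slc2a1 had -0.40 (adjusted p = 0.156), Pfkp -0.23 (adjusted p = 0.394) and Pdhb 0.23 (adjusted p = 0.343). Without PBS replicate 1 or hlOSM replicate 3 the count was 1, the gene being Slc2a1, which differed by 0.31 between mLIF and PBS and by -0.10 between hlOSM and mOSM. Calls over all genes rose there too, from 2 higher and 20 lower to 9 and 81 without PBS replicate 1. Without hlOSM replicate 3 they were 18 and 136, so that nothing is read from that count.

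Ratios of paired genes within a library hardly depend on how that library was scaled. In 11 pairs of related enzymes and carriers, the 3 libraries of a cytokine were all above those of PBS for 5 pairs under mLIF, 9 under mOSM and 8 under hlOSM, and all below for 0, 1 and 1. An exact two-sided permutation test of 3 against 3 libraries cannot go below p = 0.1, which these 24 of 33 comparisons all had (adjusted p = 0.138 over the 33). The 24 include Slc16a3 to Slc16a1 with mOSM and hlOSM, where Slc16a3 had to differ through the filter. For that pair with mOSM and hlOSM the separation and its p are a description, not a test. Among single tested genes, all 3 libraries of mLIF, mOSM and hlOSM stood above PBS for 14.7%, 20.2% and 22.7%. They stood below for 15.6%, 19.9% and 24.3%. Such a share was not computed for other pairs. The muscle form comes first in Hk2 to Hk1 and second in Pfkp to Pfkm, so above and below have no common meaning. Beyond the pairs given above, Pfkp to Pfkm rose by 0.33, 0.62 and 0.60 with mLIF, mOSM and hlOSM, Pgam1 to Pgam2 by 0.19, 0.53 and 0.65, and Eno1 to Eno3 by 0.18, 0.33 and 0.23, with overlap only for Pgam1 to Pgam2 with mLIF. Pdk4 to Pdk2 rose by 0.22, 0.42 and 0.41 without overlap. Without PBS replicate 3 the mLIF differences were 0.18 for Pfkp to Pfkm, 0.10 for Pgam1 to Pgam2 and 0.14 for Pdk4 to Pdk2, and without mLIF replicate 3 that of Pgam1 to Pgam2 was 0.13. For the phosphorylases, Pygb to Pygm was 0.16 ± 0.019 with PBS and 0.03 with mOSM and with hlOSM, lower in every library. Its mOSM difference of -0.13 became -0.09 without mOSM replicate 2. Ldha to Ldhb overlapped PBS with every cytokine.

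**Figure D4:**
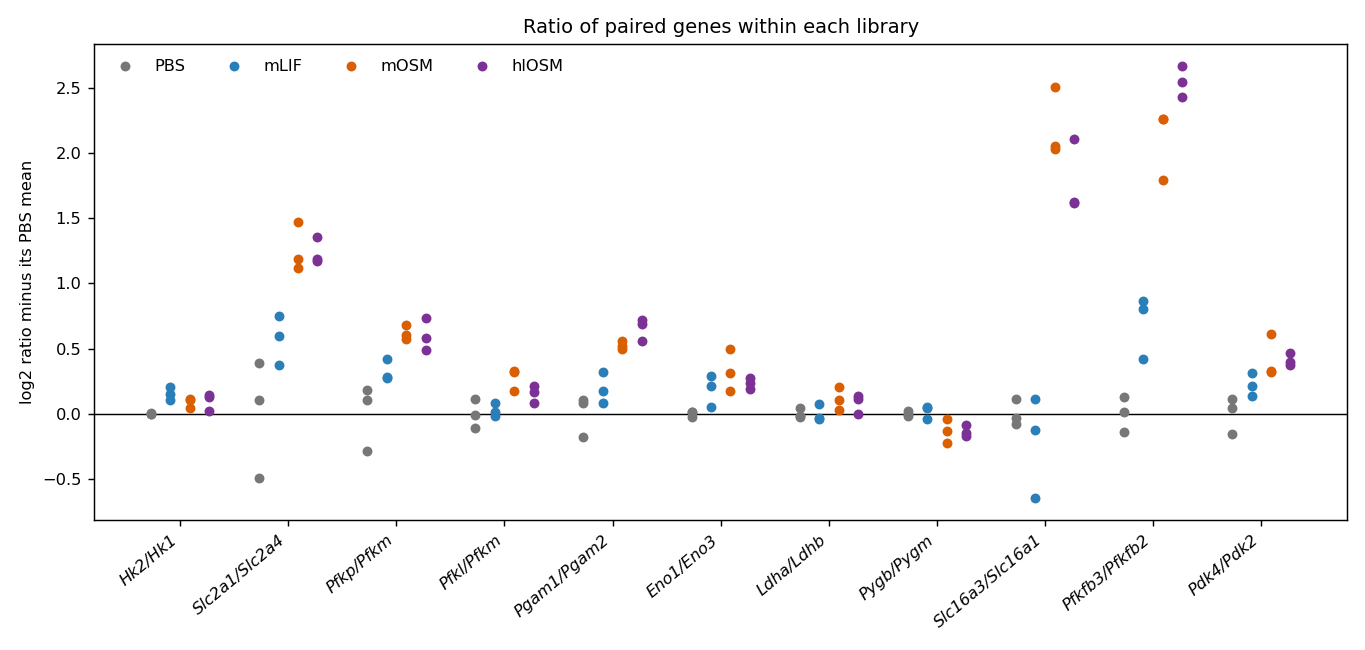
Log2 ratio of normalized counts of 11 gene pairs in each library, minus the mean of the PBS libraries, with 3 points per condition. Pfkfb3/Pfkfb2, Slc16a3/Slc16a1 and Slc2a1/Slc2a4 stand far above PBS with mOSM and hlOSM, Pygb/Pygm stands slightly below, and Ldha/Ldhb stays around 0. For Slc16a3/Slc16a1 this is a description, because Slc16a3 met the filter only through its mOSM and hlOSM libraries and so had to differ.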

How the data were processed

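Conditions of the 12 libraries of cardiomyocyte RNA, 3 each for PBS, mLIF, mOSM and hlOSM, follow the sample titles. After trimming, the authors used STAR 2.7.7a for alignment to mm10 and counted reads that touched exons of a single gene with featureCounts 1.6.5. The deposited values are scores on a normalized count scale that the authors rounded to whole numbers. The normalization and the strand setting of the counting are not given in the sources used here, and the sequenced depth behind a value is not in the table, so that no counting interval was given and count models were not used.

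Values were analysed as log2(normalized count + 1) in limma 3.58.1 (R 4.3.3, eBayes with a mean-variance trend), in 1 fit of the 4 conditions over 13184 genes with a value of at least 10 in at least 3 libraries. Tests were two-sided, with a Benjamini-Hochberg adjusted p under 0.05 over all genes tested, and SE and 95% intervals come from the same fit. Fold changes on this scale understate those of low genes. Ratios of paired genes were tested by exact permutation with scipy 1.17.1. Exonic lengths, overlaps and shared windows of 75 bases come from GENCODE M21 (GRCm38, the same coordinates as mm10), in which all 37 genes had the start and end of the table. Level per kb is the normalized count divided by the exonic length, which joins the exons of all annotated transcripts of a gene. Scripts were tested on simulated data.

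The members and the lists of related genes were chosen with earlier results of these data known. Values in every library are given for members past the threshold with an absolute log2 fold change of at least 0.5 against PBS and for Slc2a1, Slc2a4, Hk1, Hk2, Pfkfb2, Pdk4, Gys1 and Pygm. Of 117 related genes, 103 were tested, and those with a change of at least 0.5 with mOSM or hlOSM and a mean of at least 50 are named, others only where said. Marker lists of cardiomyocytes, fibroblasts, endothelial cells, smooth muscle, macrophages and erythroid cells were summed. Macrophage and leukocyte markers summed to 309 to 335 with PBS, 288 to 327 with mLIF, 353 to 393 with mOSM and 328 to 399 with hlOSM. Of the erythroid list Alas2 alone was in the table, at 2 or less. As alternatives, the pseudocount was set to 0.1 or 5, the filter to none or 50, values were rescaled by trimmed means or quantiles, eBayes was run robustly, the fit was limited to the conditions compared, replicate number entered as a block, and each library was left out in turn. No other columns of per-sample values were present.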

Additional observations from a re-analysis of the deposited data

How the results depend on the processing

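The values that changed sign were differences near 0 that had not passed the threshold, and no member past the threshold changed sign under the alternatives run. Hk1 with mLIF was 0.0115 after quantile rescaling (adjusted p = 0.889), Gys1 with hlOSM was 0.0058 after trimmed-mean rescaling, and Gys1 crossed 0 when libraries were left out, at -0.046 with mLIF (range -0.046 to 0.121), -0.032 and -0.0029 with mOSM (-0.032 to 0.149) and 0.036, 0.057 and 0.018 with hlOSM (-0.111 to 0.057). Among related genes with mLIF, Stbd1 was -0.0069 without PBS replicate 3 (range -0.0069 to 0.149) and Mlx -0.022 without PBS replicate 2 (-0.022 to 0.278). For mLIF, 3 members were raised after quantile rescaling and in the fit of PBS and mLIF libraries alone, and the number lowered was 1 with no filter, 5 with a filter of 50, 4 after trimmed-mean rescaling, 1 after quantile rescaling, 1 with the replicate block and 7 in the fit of those libraries alone. For mOSM against mLIF, 6 were raised after quantile rescaling. For hlOSM against mLIF, 3 were lowered with the replicate block. Over all genes, those lowered with mLIF were 469 of 22915 with no filter and 612 of 9086 with a filter of 50. Of 13184 they were 629 after trimmed-mean rescaling, 580 after quantile rescaling and 337 with the block. Quantile rescaling raised 751 with mLIF and 839 for mOSM against mLIF, and the block lowered 878 for hlOSM against mLIF. With a pseudocount of 5 the log2 ratio of Slc16a3 to Slc16a1 was above PBS by 1.74 for mOSM and 1.37 for hlOSM. The filter of 50 removed Slc16a3 and left 36 members. With no filter on low values Slc16a3 passed for mOSM and hlOSM. Genes named after their values were seen, other than Slc2a3, were not rerun under the alternatives. The cause of these shifts was not tested.

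With each library left out in turn, members raised and lowered ranged from 0 to 2 and 1 to 6 for mLIF, 5 to 9 and 8 to 12 for mOSM, 5 to 9 and 9 to 16 for hlOSM, 2 to 5 and 2 to 4 for mOSM against mLIF, and 2 to 4 and 3 to 7 for hlOSM against mLIF. The interaction had 0 to 1, hlOSM against mOSM 0, and the paired ratios without overlap 24 to 26. Over all genes, 13082 to 13150 tested, those raised and lowered ranged from 273 to 844 and 199 to 796 for mLIF. They ran from 1706 to 2107 and 1467 to 2300 for mOSM, and from 1795 to 2504 and 1924 to 2777 for hlOSM. Against mLIF they ran from 556 to 886 and 529 to 845 for mOSM. For hlOSM against mLIF they ran from 671 to 1054 and 855 to 1311. For the interaction, 0 to 18 were higher and 5 to 136 lower.

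The conditions share replicate numbers, and whether these pair the libraries cannot be read from the values. Over 6626 genes with a mean of at least 100, 0.0168% of the variance within conditions lay between numbers, where 25% stands without an effect. With almost none left, the deviations of same-numbered libraries must cancel, so that their negative correlations (median -0.332) say nothing on pairing. With the number as a block, members raised and lowered were 1 and 1 for mLIF, 6 and 10 for mOSM, and 8 and 13 for hlOSM. The calls lost there were Pygm for mLIF (adjusted p = 0.0749), Pgam1, Pgam2, Hk1 and Pdk2 for mOSM (0.103, 0.0648, 0.0626 and 0.0843), Pdk2 for hlOSM (0.0651), Hk1 for mOSM against mLIF (0.073), and Ugp2 and Pdp1 for hlOSM against mLIF (0.0571 and 0.0502).

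Values are rounded, so that 1 unit is a large step for genes such as Slc16a3, and with 3 libraries per condition a difference of about 0.1 on the log2 scale was seldom resolved.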

Other observations

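Branches off glycolysis that the members do not cover are described by their counts, which stand beside 15.4% raised and 15.8% lowered of all tested genes for mOSM and 18.2% and 19.8% for hlOSM. Nothing is read from a count near those shares. Of 11 tested genes of the hexosamine and polyol pathways, 4 were raised and 2 lowered by mOSM, and 5 and 2 by hlOSM. Gfpt2, an isoform of the amidotransferase that opens the hexosamine pathway, had 97, 99 and 74 with PBS, 106, 120 and 117 under mLIF, 212, 196 and 223 under mOSM, and 205, 189 and 258 under hlOSM, and rose by a log2 of 1.23 with mOSM (limma, adjusted p = 2.43e-08) and 1.26 with hlOSM (adjusted p = 1.09e-08). The difference of Gfpt2 with mLIF, 0.35, had an adjusted p of 0.0502, and of 0.0383 to 0.0497 with a pseudocount of 5, a filter of 50, robust eBayes or without PBS replicate 1 or 2. Akr1b8, an aldo-keto reductase related to aldose reductase, had 54 to 92 with PBS, 106 to 141 with mLIF, 158 to 196 with mOSM and 187 to 217 with hlOSM, and rose with all 3 cytokines, by 0.76, 1.28 and 1.44 (adjusted p = 0.00144, 2.77e-07 and 3.38e-08). Sord, the dehydrogenase that turns sorbitol into fructose, was lower with all 3, by -0.23, -0.23 and -0.21, and was named after its values were seen.

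Of 9 tested genes of the pentose phosphate pathway, 2 were raised and 0 lowered by mOSM and 3 and 0 by hlOSM, and none passed with mLIF. Taldo1, the transaldolase, rose by 0.43 and 0.47 (adjusted p = 1.58e-04 and 4.28e-05), and Pgd, a dehydrogenase of its oxidative arm, by 0.26 and 0.22 (adjusted p = 0.0256 and 0.046), both named after their values were seen. Of 10 genes of the glycerol phosphate and malate-aspartate shuttles, which carry reducing equivalents into mitochondria, mOSM raised 0 and lowered 2 and hlOSM raised 1 and lowered 5. The aspartate-glutamate carrier Slc25a12 was lower by -0.23 and -0.26 (adjusted p = 0.00358 and 9.01e-04), and Gpd2, the mitochondrial glycerol phosphate dehydrogenase, was higher with hlOSM by 0.31 (adjusted p = 0.0247), both named after their values were seen.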
